A study of Mus musculus with 36 samples.

Results

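The comparison of untreated common dendritic cell progenitors (CDP) with untreated multipotent progenitors (MPP) of the mouse rested on 6 of the 36 arrays of a TGF-β1 time course, 3 of each cell type, chosen by their sample labels. Both cell types were raised from mouse bone marrow in culture with a cytokine cocktail and isolated by FACS, and none of these 6 samples had received TGF-β1. The remaining arrays hold the same cell types after 10 ng/ml of recombinant human TGF-β1 for 2, 4, 8, 12 or 24 h, again with 3 arrays a group. Strain, genotype, age and the surface proteins used for sorting are not given in the sources used here. A difference in the gene of a surface protein, such as Kit or Flt3, and the sort gate therefore cannot be told apart.

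MPP are progenitors that can still form all blood lineages, and the stem cell factor receptor Kit and the factors Gata2 and Myb are among the genes known for them. CDP arise from MPP, respond to the FLT3 ligand and give rise to plasmacytoid dendritic cells (pDC), which make type I interferon, and to conventional dendritic cells (cDC), which present antigen on MHC class II molecules. Granulocytes branch from the same progenitors, and their enzymes, myeloperoxidase and neutrophil elastase among them, are made early and stored in azurophil granules, while specific granule proteins such as lactoferrin are made later.

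Values are log2 intensities of Affymetrix Mouse Gene 1.0 ST arrays, so a difference of 1 is a doubling, and the lower quartile of all genes was 6.48 to 6.55 on the 6 arrays. The 3 arrays of a cell type correlated with each other at 0.9958 or more over the genes, and arrays of different cell types at 0.9786 or more. The median SD of a gene was 0.0645 in MPP and 0.0664 in CDP. On both cell types the array numbered 1 stood apart in sex-linked transcripts: Xist was at 6.96, 13.65 and 13.63 on the MPP arrays and at 7.04, 13.60 and 13.64 on the CDP arrays, and the Y-linked gene Eif2s3y was high on replicate 1 alone (10.45 and 10.31). On both cell types the array numbered 3 was highest in the mean of 26 interferon-stimulated genes (8.48, 8.47 and 9.28 in MPP, 8.86, 8.70 and 10.49 in CDP). Same-numbered arrays thus share properties across the cell types, and the main counts below are given again without the arrays numbered 3.

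Of 19938 genes tested with limma, 251 (1.26%) were higher in CDP and 310 (1.55%) were lower, or 561 (2.81%) in either direction. A call required an adjusted p (Benjamini-Hochberg, over all genes) under 0.01 and a log2 fold change of at least 1 either way. On all 561 the 3 CDP values lay wholly above or wholly below the 3 MPP values, against 40.2% of all genes tested (21.9% above and 18.3% below). The median log2 fold change of all genes was 0.03, and for 91.3% of them it was under 0.5 in size. At least 4-fold apart were 60 of the genes called higher and 86 of those called lower, and at least 8-fold apart were 21 and 23. Another 2248 genes passed the adjusted p with a smaller change. For some lists below, members at an unadjusted p under 0.05 are also counted. The share of all genes at that p was not counted, so these numbers are not read as particular to a list. Without the arrays numbered 3 the counts were 232 higher and 318 lower. Of the 38 gene lists, only that of TGF-β receptors and Smads then had a count of called members that moved by more than 1.5 times (from 1 to 0), while MHC class II presentation went from 9 to 8, conventional DC genes from 12 to 11 and neutrophil granule genes from 16 to 15. In bulk RNA of this kind, a smaller share of cells expressing a gene and less of its RNA in each cell cannot be told apart, which holds for every difference below.

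**Figure D1:**
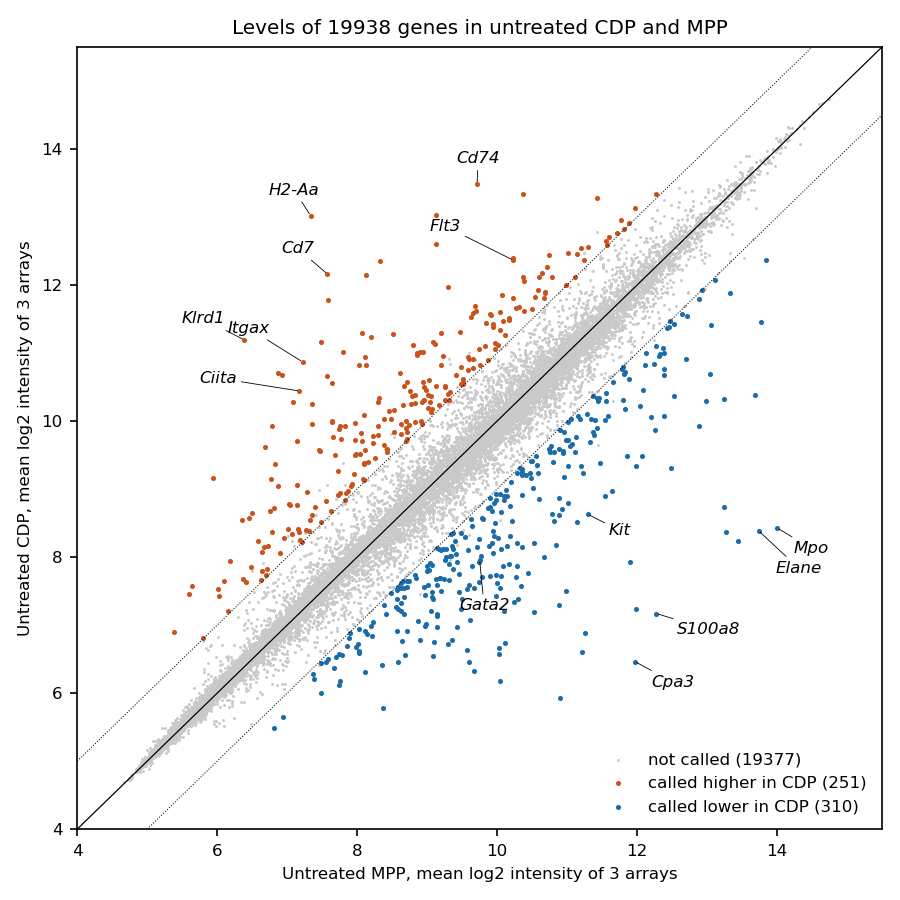
Mean log2 intensity of 19938 genes on the 3 untreated MPP arrays (horizontal axis) and the 3 untreated CDP arrays (vertical axis). Each point is a gene, the solid line marks equal levels, the dotted lines mark a log2 difference of 1 either way, and the 251 genes called higher and 310 called lower in CDP are coloured. H2-Aa, Klrd1 and Cd7 lie farthest above the line, and Mpo, Cpa3 and Elane farthest below.

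The labels were set against markers of both cell types. Of 7 measured MPP markers Kit, Cd34, Gata2 and Myb were lower in CDP. Of 10 CDP markers Flt3, Spib, Siglech, H2-Aa and Cd74 were higher. H2-Aa and Cd74 were also counted among class II genes, and Spib and Siglech among pDC genes, so these markers are not particular to CDP. The other MPP markers were not called: Cd27, a costimulatory receptor gene, was at a log2 fold change of −0.91 ± 0.16 (adjusted p = 6.13e-05), short of the fold threshold, and the transcription factor genes Meis1 and Sox4 at −0.18 ± 0.14 and 0.18 ± 0.14. The other CDP markers, Csf1r, Irf8, Id2, Tcf4 and Zbtb46, were not called, and their smaller differences are given below. Ly6a, the gene of the Sca-1 antigen, was not analysed here.

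**Figure D2:**
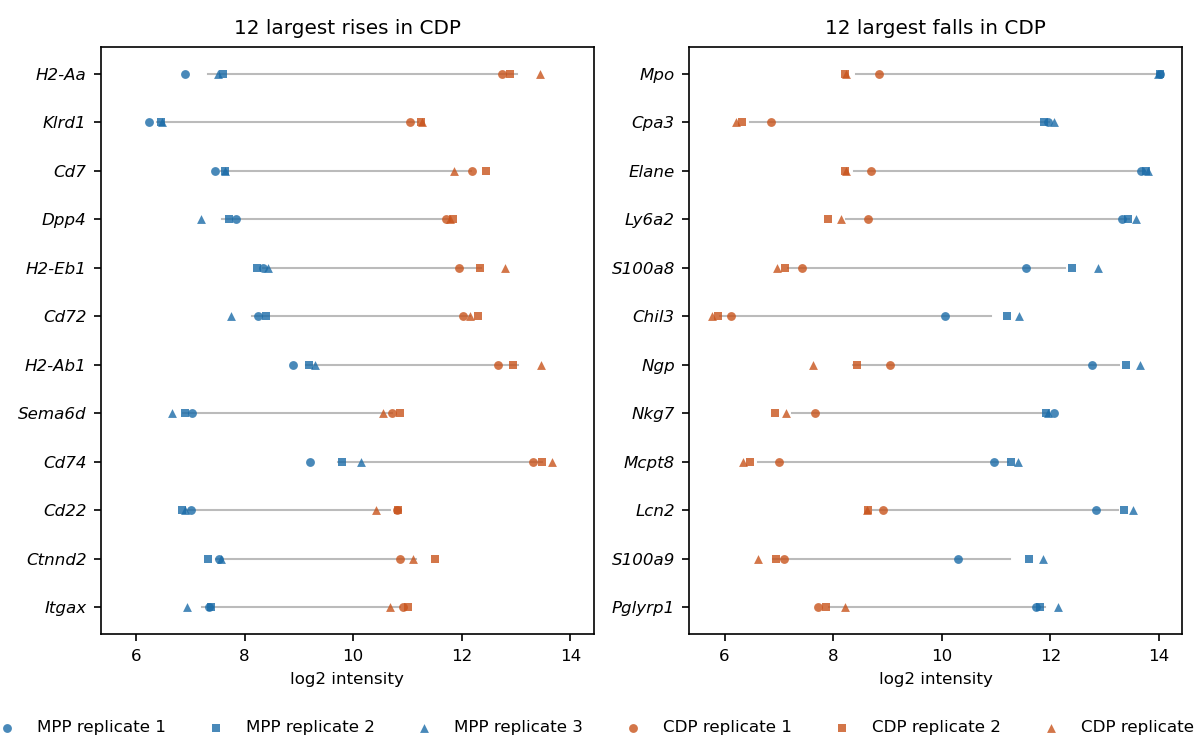
Log2 intensity on each of the 6 untreated arrays for the 12 genes with the largest rise (left) and the 12 with the largest fall (right) in CDP. Blue symbols are MPP and orange symbols CDP, the symbol shape gives the replicate number and the grey line joins the group means. No gene has an MPP value between its CDP values.

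The genes of MHC class II antigen presentation gave the largest rise. Of 13 measured, 9 were called higher in CDP (69.2% against 1.26% of all genes). The list's median log2 fold change was 1.26 against 0.03 for all genes. H2-Aa, which encodes the alpha chain of the class II molecule I-A, was at 6.90, 7.60 and 7.51 on the MPP arrays and at 12.74, 12.88 and 13.45 on the CDP arrays. Its lowest CDP value was far above its highest MPP value. The rise of 5.69 ± 0.27 was 51.6-fold (adjusted p = 2.17e-15), the largest of all genes tested. The error is the SE for 3 arrays per group, with a variance from all arrays, treated ones included. The beta chain gene of I-E, H2-Eb1, rose by 4.03 ± 0.23, from 8.33, 8.23 and 8.42 to 11.95, 12.33 and 12.79 (adjusted p = 1.01e-13). H2-Ab1, the beta chain gene of I-A, rose by 3.90 ± 0.23, from 8.89, 9.19 and 9.30 to 12.67, 12.95 and 13.46. For each of these 3 genes the CDP array numbered 3 was the highest of all, and the groups did not overlap.

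Class II molecules need partners to be loaded. Cd74, the gene of the invariant chain that guides class II molecules to the endosome, rose by 3.77 ± 0.21, from 9.20, 9.79 and 10.15 in MPP to 13.31, 13.48 and 13.67 in CDP (13.7-fold, adjusted p = 5.83e-14). Ciita, the transactivator that switches on the class II genes, rose by 3.27 ± 0.21, from 7.11, 7.20 and 7.20 to 9.94, 10.59 and 10.80. It was nearly even among the MPP arrays and spread over the CDP arrays, with no overlap. H2-Ob and H2-Oa, whose product H2-O holds back peptide loading, rose by 2.13 ± 0.24 and 1.26 ± 0.15, H2-DMa, a subunit of the loading factor H2-M, by 1.01 ± 0.11, and the thiol reductase gene Ifi30 by 1.19 ± 0.11. The call of H2-DMa was close to the fold threshold, and it was lost without CDP replicate 3 (0.91) or MPP replicate 3 (0.96). The subunits of the RFX complex, which binds class II promoters, were not called: Rfx5 was at −0.13 ± 0.11, Rfxank at 0.11 ± 0.09 and Rfxap at 0.10 ± 0.07. Ctss, the gene of the protease cathepsin S that trims the invariant chain, was at 0.42 ± 0.09, an adjusted p of 0.000388 below the fold threshold. Genes of MHC class I presentation had a median of 0.03 and 0 of 12 was called by limma, with 5 at an unadjusted p under 0.05.

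Class II promoters are known for a shared element, the Y box, which holds the letters ATTGG in forward orientation. It was searched on both strands, as ATTGG or as the reverse CCAAT, in the 250 bases before the start site in RefSeq promoter windows of GRCm38.p6, and 4 of the 5 class II genes with a window held it in their first window. These were H2-Aa, H2-Eb1, H2-Ob and H2-Oa, with ATTGG beginning 48, 59, 57 and 43 bases before the start. A Y box was also held by 33.8% of all 32851 windows. The windows of H2-Aa (chr17:34287824-34288073, minus strand) and H2-Eb1 (chr17:34305617-34305866, plus strand) are shown because both genes are among the 12 largest rises, with matches to the Y box in either orientation and to the E-box letters CAGCTG in capitals.
H2-Aa: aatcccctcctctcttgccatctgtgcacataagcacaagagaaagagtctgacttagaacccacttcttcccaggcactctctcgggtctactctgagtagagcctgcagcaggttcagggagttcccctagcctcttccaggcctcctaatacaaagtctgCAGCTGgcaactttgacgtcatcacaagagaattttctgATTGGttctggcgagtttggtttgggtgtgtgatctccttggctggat
H2-Eb1: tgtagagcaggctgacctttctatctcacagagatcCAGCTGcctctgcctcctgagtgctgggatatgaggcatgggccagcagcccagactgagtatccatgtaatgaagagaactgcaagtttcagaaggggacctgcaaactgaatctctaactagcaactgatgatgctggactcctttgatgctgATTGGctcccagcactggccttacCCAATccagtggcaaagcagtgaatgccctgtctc

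Of 29 measured genes known for cDC, 41.4% were called (11 higher and 1 lower, against 2.81% of all genes in either direction), with a median of 0.74. Itgax, which encodes the CD11c integrin of dendritic cells, was at 7.35, 7.37 and 6.94 in MPP and 10.92, 11 and 10.68 in CDP, a rise of 3.65 ± 0.17 (12.6-fold, adjusted p = 1.66e-15). Dpp4, the gene of the surface peptidase CD26, rose by 4.20 ± 0.25, from 7.84, 7.71 and 7.19 to 11.72, 11.83 and 11.79. Ccr7, the chemokine receptor gene used by dendritic cells on the way to lymph nodes, rose by 3.22 ± 0.25, from 7.89, 7.57 and 7.92 to 10.71, 10.92 and 11.41. For these genes the groups did not overlap, and the CDP arrays were closer together than the MPP arrays only for Itgax and Dpp4. The lectin receptor gene Mgl2 was the member called lower (−1.21 ± 0.19, adjusted p = 1.79e-05). Genes of cDC subsets stood at different levels. Xcr1, a chemokine receptor gene of the first cDC subset, was at 6.36, 6.40 and 6.67 in MPP and 6.51, 6.67 and 6.59 in CDP, with overlapping groups. Clec9a, another of its receptors, was at 5.87, 5.84 and 5.88 and 6.81, 6.63 and 6.47, a difference of 0.77 ± 0.10 with an adjusted p of 4.12e-07 below the fold threshold. Of the second subset, the lectin receptor gene Cd209a was at 6.68, 6.61 and 6.71 and 7.29, 7.47 and 7.46 (a difference of 0.74 ± 0.06), and Sirpa, a signal-regulatory receptor gene, was high in both cell types, at 12.85, 13.02 and 13.03 and 13.25, 13.22 and 13.39.

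The window of Dpp4 (chr2:62412232-62412481, minus strand) is shown as that of the second highest gene for which a window was at hand, with the TATA box letters TATAAA and the GATA letters AGATAA in capitals. Of all windows, 12.4% held TATAAA and 9.99% AGATAA on either strand.
Dpp4: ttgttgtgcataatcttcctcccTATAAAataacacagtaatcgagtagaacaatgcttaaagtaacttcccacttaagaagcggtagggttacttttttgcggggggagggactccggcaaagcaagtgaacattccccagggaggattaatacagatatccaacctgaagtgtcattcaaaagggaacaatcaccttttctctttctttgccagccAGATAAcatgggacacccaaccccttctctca

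Of 16 measured genes of costimulation and activation, 6 were called higher (37.5% against 1.26% of all genes) and 10 were not called, with a median of 0.80. Slamf9 and Slamf7, surface receptor genes of the SLAM family, rose by 3.04 ± 0.21 and 2.70 ± 0.24. Cd80 and Cd86, which encode the ligands of CD28, rose by 1.49 ± 0.32 and 1.38 ± 0.29, and Icosl, the ligand gene of ICOS, by 1.31 ± 0.24. The call of Cd80 was lost without the arrays numbered 1 or those numbered 2, and that of Cd86 without those numbered 2. Cd40 rose by 1.56 ± 0.43 (adjusted p = 0.00817), from 8.14, 8.36 and 8.93 to 9.57, 10.03 and 10.50. Array 3 was the highest of its group in both cell types, and the call was lost when any of 4 single arrays was left out (1.32 without CDP replicate 3 and 1.39 without MPP replicate 1, for example). Cd83, a dendritic cell maturation gene, was at 1.58 ± 0.51 and was not called (adjusted p = 0.0243). Its values were 7.67, 7.83 and 7.92 and 8.95, 9.15 and 10.07, with no overlap, and it was called on the 6 untreated arrays alone (adjusted p = 0.00396), there with the replicate number as a block (adjusted p = 0.00149) and with array weights (adjusted p = 0.00198).

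Of 20 measured pDC genes, 6 were called higher (30.0% against 1.26% of all genes), with a median of 0.46. Cox6a2, a subunit gene of cytochrome c oxidase, was at 9.56, 9.44 and 8.91 in MPP and 12.03, 11.94 and 11.95 in CDP, and rose by 2.67 ± 0.21. Tlr9, the receptor gene for unmethylated DNA, rose by 2.00 ± 0.13, from 9.77, 9.77 and 9.53 to 11.61, 11.74 and 11.74. Siglech, the gene of a pDC surface lectin, rose by 1.62 ± 0.23, from 7.05, 7.23 and 7.14 to 8.93, 9.04 and 8.31, with CDP replicate 3 the lowest CDP array. Tlr7, the receptor gene for single-stranded RNA, was at −0.02 ± 0.40 (adjusted p = 0.985) with overlapping groups, and Ccr9, a chemokine receptor gene of mature pDC, at 0.07 ± 0.08. Of the Toll-like receptor genes and adaptors, Ly86, whose product MD-1 pairs with a Toll-like receptor homologue, rose by 1.85 ± 0.24.

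Several genes named for other lymphoid cells were among the largest rises. Klrd1, the gene of the CD94 lectin of NK cells, was at 6.23, 6.45 and 6.47 in MPP and 11.05, 11.25 and 11.28 in CDP, a rise of 4.81 ± 0.23 (28-fold, adjusted p = 2.45e-15). Cd7, a surface protein gene of T and NK cells, rose by 4.59 ± 0.20, from 7.45, 7.63 and 7.64 to 12.18, 12.45 and 11.86. Cd5 rose by 1.76 ± 0.16. These were 3 of 23 measured T and NK cell genes and 1 more fell (Nkg7), or 17.4% called against 2.81% of all genes. The list's median was 0.13. Cd3e, part of the T cell receptor complex, was at 7.54, 7.66 and 7.67 in MPP and 7.67, 7.65 and 7.62 in CDP.

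Of 26 measured genes of lymphoid priming and B cells, 5 were called higher (19.2% against 1.26% of all genes), with a median of 0.11. Cd72 and Cd22, inhibitory receptor genes of B cells, rose by 4.03 ± 0.20 (from 8.24, 8.40 and 7.75 to 12.02, 12.29 and 12.15) and by 3.75 ± 0.17 (from 7.02, 6.85 and 6.90 to 10.80, 10.82 and 10.41). Bank1, an adaptor gene of B cell receptor signalling, rose by 2.38 ± 0.14, and Satb1, a chromatin organiser gene of lymphoid progenitors, by 1.91 ± 0.16. The defining B cell gene Cd79a was at 5.65, 5.66 and 5.70 in MPP and 5.72, 5.82 and 5.64 in CDP and was not called (adjusted p = 0.63). Its partner in the B cell receptor, Cd79b, was high in both, at 11.31, 11.26 and 11.21 in MPP and 12.27, 12.23 and 12.21 in CDP. The groups of Cd79b did not overlap, and the difference of 0.98 ± 0.10 had an adjusted p of 2.09e-08 but was just short of the fold threshold, which it passed without MPP replicate 1 (1.00).

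The remaining large rises were spread over other functions. Sema6d, a semaphorin gene, was at 7.03, 6.90 and 6.66 in MPP and 10.71, 10.86 and 10.56 in CDP, a rise of 3.85 ± 0.15. Ctnnd2, which encodes delta-catenin, rose by 3.68 ± 0.21, from 7.53, 7.33 and 7.57 to 10.86, 11.51 and 11.09. Among genes named after their values were seen, Kmo, an enzyme gene of the kynurenine pathway, rose by 3.48 ± 0.21, Pltp, the phospholipid transfer protein gene, by 3.23 ± 0.15, Bach2, a transcriptional repressor gene, by 2.81 ± 0.16, and St6gal1, a sialyltransferase gene, by 2.83 ± 0.13.

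**Figure D3:**
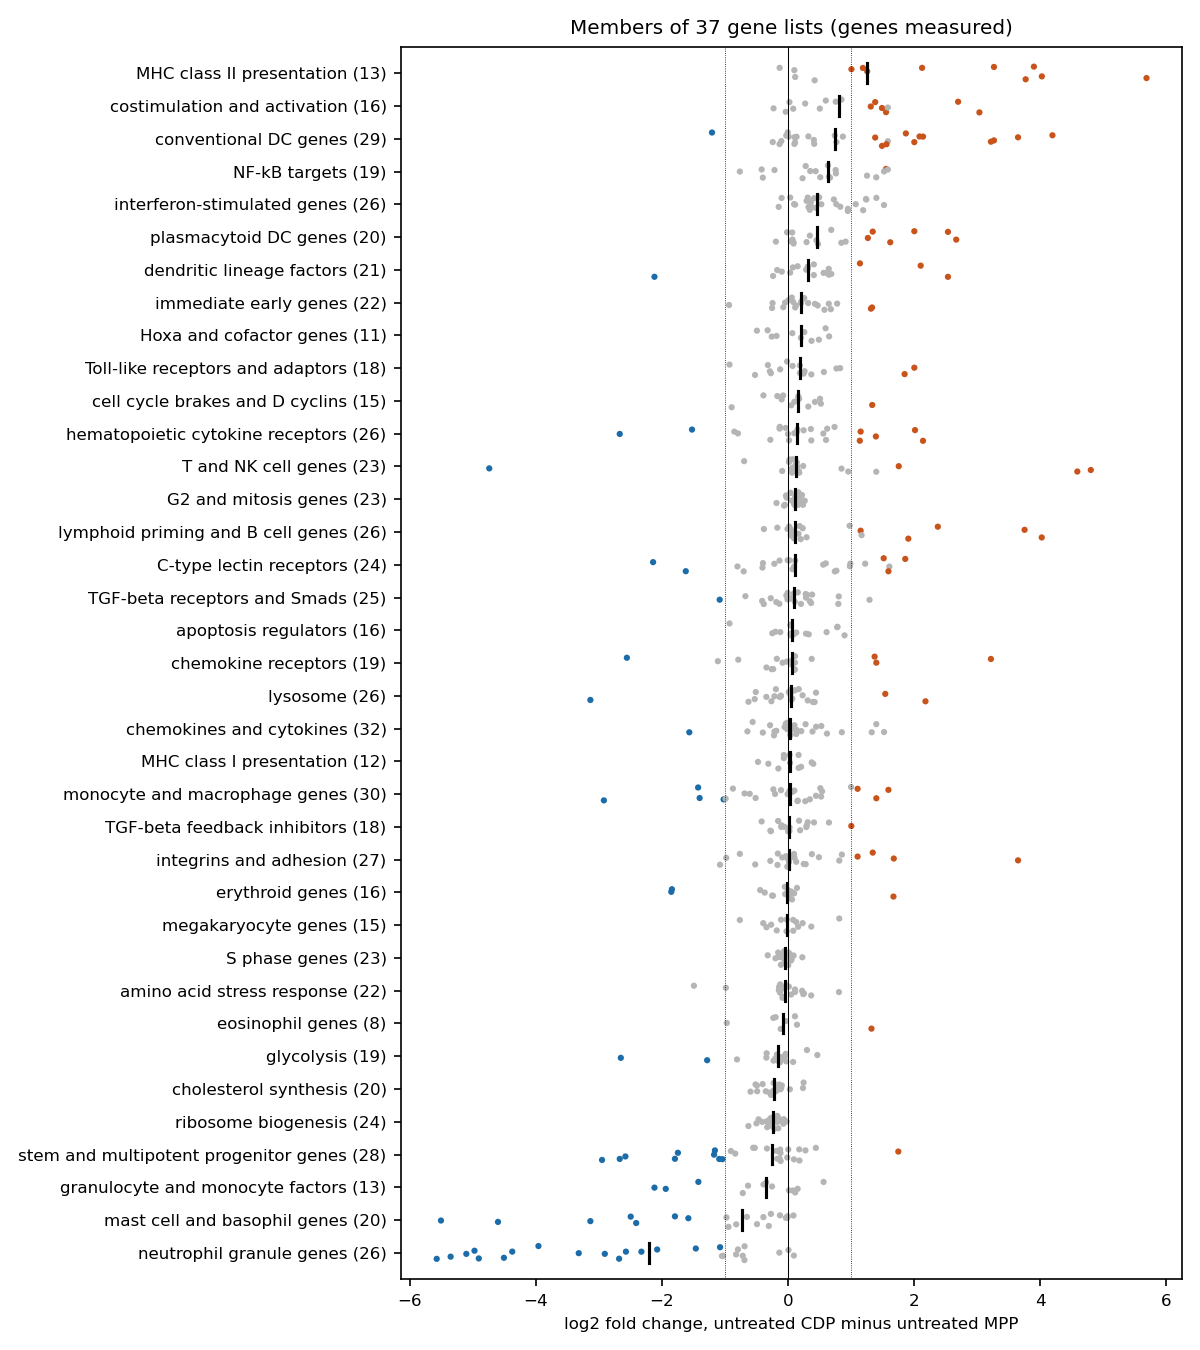
Log2 fold change (untreated CDP minus untreated MPP) of the measured members of 37 gene lists, ordered by median, with the number measured in parentheses. Each point is a gene, orange if called higher, blue if called lower and grey if not called, and the black bar is the list's median. MHC class II presentation has the highest median (1.26) and neutrophil granule genes the lowest (−2.20).

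Of 21 measured transcription factors of the dendritic lineage, 3 were called higher and 1 lower (19% against 2.81% of all genes). Their median was 0.32. Spib, an ETS factor gene of pDC, was at 6.68, 6.76 and 7.04 in MPP and 9.18, 9.58 and 9.34 in CDP, a rise of 2.54 ± 0.25. Irf4, an interferon regulatory factor gene of cDC, rose by 2.11 ± 0.21, from 7.49, 7.79 and 7.70 to 9.50, 9.80 and 9.99. Cbfa2t3, a corepressor gene, rose by 1.14 ± 0.15, and Gfi1, a repressor gene of granulocyte development, fell by 2.12 ± 0.17.

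Other factors of dendritic cells were not called. Irf8, required for cDC of the first subset, was at 12.36, 12.40 and 12.13 in MPP and 12.66, 12.67 and 12.50 in CDP. The groups did not overlap, and the difference of 0.32 ± 0.08 had an adjusted p of 0.00401 but was under the fold threshold. Spi1, the gene of PU.1, was at 13.10, 13.15 and 13.22 in MPP and 13.30, 13.26 and 13.36 in CDP, a difference of 0.15 ± 0.07 (adjusted p = 0.103). Tcf4, the E protein gene of pDC, was at 0.69 ± 0.11, Id2, its inhibitor in cDC, at 0.62 ± 0.10, Zbtb46, a zinc finger gene of cDC, at 0.41 ± 0.09, and Batf3, a partner of Irf8, at 0.32 ± 0.08. Each of these 4 had an adjusted p under 0.01 with a fold change short of the threshold. Nfil3 was at −0.24 ± 0.13 and Zeb2 at −0.17 ± 0.23, neither past the adjusted p.

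Receptors for cytokines fell into those that rose, those that fell and a majority that was not called. Of 26 measured, 5 were called higher and 2 lower (26.9% against 2.81% of all genes), with a median of 0.14. Flt3, the receptor gene of the FLT3 ligand, was at 10.75, 10.23 and 9.69 in MPP and 12.42, 12.40 and 12.28 in CDP, a rise of 2.14 ± 0.22 (4.41-fold, adjusted p = 8.61e-09). The MPP arrays were spread out and the CDP arrays were close together. Il21r rose by 2.02 ± 0.12, Il18r1 by 1.39 ± 0.09 and Il10ra by 1.14 ± 0.10, the receptor genes of interleukins 21, 18 and 10. Il7r, the interleukin 7 receptor gene, rose by 1.15 ± 0.25, and its call was lost without CDP replicate 3 (0.87).

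Kit showed the opposite course. It was at 11.30, 11.20 and 11.40 in MPP and 8.40, 8.86 and 8.63 in CDP, and fell by 2.67 ± 0.23 (6.37-fold, adjusted p = 2.95e-10). Igf1r, the receptor gene of insulin-like growth factor 1, fell by 1.52 ± 0.14, from 11.33, 11.50 and 11.43 to 9.99, 10.07 and 9.63. The receptor gene of macrophage colony-stimulating factor, Csf1r, was at 12.52, 12.65 and 12.79 in MPP and 12.75, 12.67 and 12.98 in CDP, with overlapping groups and a difference of 0.15 ± 0.10 (adjusted p = 0.332, 95% confidence interval −0.06 to 0.35). Csf2ra and Csf2rb, the subunit genes of the GM-CSF receptor, were at −0.28 ± 0.17 and 0.02 ± 0.08. Csf3r, the receptor gene of the granulocyte growth factor G-CSF, was at −0.80 ± 0.24 with an adjusted p of 0.0143.

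The largest falls were in granule genes of neutrophils and of mast cells. Of 26 measured neutrophil granule genes, 16 were called lower (61.5% against 1.55% of all genes), with a median of −2.20. Mpo, the myeloperoxidase gene, was at 14.01, 14.01 and 13.98 on the MPP arrays and at 8.84, 8.21 and 8.23 on the CDP arrays. It fell by 5.58 ± 0.23, or 47.7-fold (adjusted p = 1.52e-16), the largest fall of all genes tested. Elane, the neutrophil elastase gene, fell by 5.36 ± 0.15, from 13.67, 13.76 and 13.79 to 8.70, 8.21 and 8.23 (40.9-fold, adjusted p = 1.86e-20). For both genes the MPP arrays were nearly equal, and CDP replicate 1 was the highest CDP array.

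The azurophil granule genes did not all fall alike. Ctsg, which encodes cathepsin G, was at 13.73, 13.77 and 13.83 in MPP and 11.68, 11.39 and 11.28 in CDP, a difference of −2.33 ± 0.16. Prtn3, the proteinase 3 gene, was at 13.83, 13.79 and 13.91 in MPP and 12.60, 12.23 and 12.29 in CDP, a difference of −1.46 ± 0.15. The 95% confidence intervals of these falls lay apart from that of Mpo (−2.65 to −2.01 for Ctsg, −1.77 to −1.16 for Prtn3 and −6.05 to −5.10 for Mpo).

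Specific granule and later genes varied more among the MPP arrays. Ngp, the neutrophilic granule protein gene, fell by 4.91 ± 0.47, from 12.77, 13.39 and 13.66 to 9.04, 8.43 and 7.62, and Lcn2, the lipocalin 2 gene, fell by 4.51 ± 0.30, from 12.84, 13.35 and 13.52 to 8.92, 8.64 and 8.63. Ltf, the lactoferrin gene, was at 9.48, 10.61 and 11.47 in MPP and 7.31, 7.24 and 7.05 in CDP. Camp, the cathelicidin gene, was at 8.64, 9.96 and 10.74 in MPP and 7.66, 7.67 and 7.78 in CDP. Of both genes MPP replicate 1 was the lowest and MPP replicate 3 the highest. Ltf fell by 3.32 ± 0.61 (adjusted p = 0.000136). Camp fell by 2.08 ± 0.56 (adjusted p = 0.00665), and its call was lost when any single array other than MPP replicate 1 was left out (−1.60 without MPP replicate 3, for example).

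Mmp8, the neutrophil collagenase gene, was at 12.60, 13.03 and 12.55 in MPP and 11.89, 11.82 and 12.00 in CDP. Its groups did not overlap, and its difference of −0.83 ± 0.27 was not called (adjusted p = 0.0269).

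The calprotectin genes S100a8 and S100a9 showed the same order of MPP arrays. S100a8 fell by 5.11 ± 0.39, from 11.55, 12.39 and 12.89 to 7.43, 7.12 and 6.96, and S100a9 fell by 4.38 ± 0.45, from 10.31, 11.62 and 11.86 to 7.09, 6.94 and 6.62. Chil3, the chitinase-like protein gene, fell by 4.98 ± 0.40, from 10.07, 11.20 and 11.43 to 6.12, 5.88 and 5.77, and Pglyrp1, a peptidoglycan recognition protein gene, fell by 3.96 ± 0.16. Of genes expressed late in neutrophils, Mmp9, a gelatinase granule gene, was at 6.67, 6.79 and 7.23 in MPP and 6.81, 6.75 and 6.72 in CDP, and Retnlg, a resistin-like gene, at 6.41, 6.47 and 6.59 and 6.56, 6.52 and 6.41. Ly6g, the surface antigen gene of neutrophils, was at 6.62, 7.43 and 8.32 in MPP and 6.52, 6.32 and 6.39 in CDP and was not called (adjusted p = 0.0428). It was called with the replicate number as a block (adjusted p = 0.00412).

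**Figure D4:**
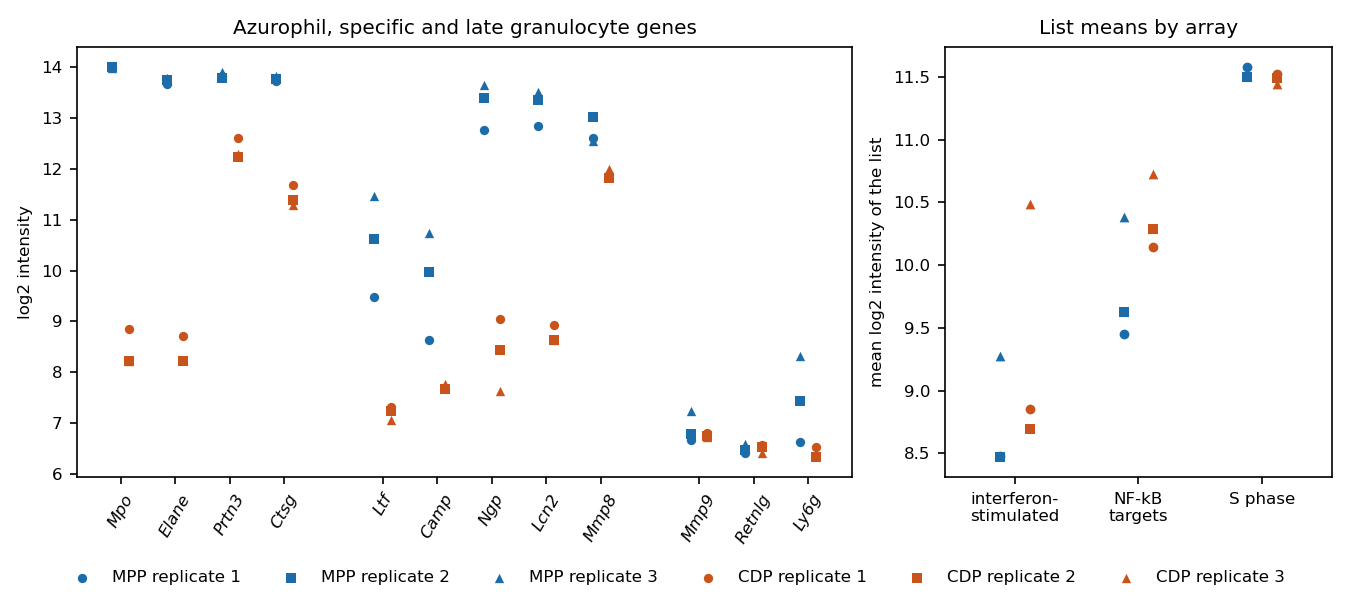
Left, log2 intensity of azurophil granule genes (Mpo to Ctsg), specific granule genes (Ltf to Mmp8) and gelatinase or late genes (Mmp9 to Ly6g) on each untreated array. Right, mean log2 intensity of the interferon-stimulated genes, NF-κB targets and S phase genes on each array. Blue is MPP, orange CDP and the symbol shape the replicate number. MPP arrays lie close together for Mpo and Elane and apart for Ltf and Camp, and replicate 3 is highest of its cell type in the interferon and NF-κB means.

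Of 20 measured genes of mast cells and basophils, 7 were called lower (35.0% against 1.55% of all genes), with a median of −0.74. Cpa3, the mast cell carboxypeptidase gene, was at 11.95, 11.89 and 12.07 in MPP and 6.86, 6.32 and 6.20 in CDP, a difference of −5.51 ± 0.18 (45.5-fold, adjusted p = 9.54e-19). Mcpt8, a protease gene of basophils, fell by 4.60 ± 0.23, from 10.96, 11.28 and 11.40 to 7.01, 6.47 and 6.35. Hdc, the enzyme gene that makes histamine, fell by 2.41 ± 0.26, Prss34, another basophil protease gene, fell by 2.50 ± 0.40, and Ms4a2, the beta chain gene of the IgE receptor, fell by 1.58 ± 0.12. Of proteases of mature mast cells, Cma1 was at 6.24, 6.47 and 5.98 in MPP and 5.89, 6.01 and 5.97 in CDP, and the difference of Mcpt4 was −0.39 ± 0.25 (adjusted p = 0.306). Cd63, a tetraspanin gene of granule membranes, fell by 3.14 ± 0.25.

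Windows of Mpo (chr11:87793534-87793783, plus strand) and Cpa3 (chr3:20242182-20242431, minus strand) are shown as those of the lowest genes. The capitals mark the PU.1 letters AGGAAGT in Mpo, and the TATA box letters (in either orientation), the E-box letters and the GATA letters AGATAA in Cpa3, where the last begin 46 bases before the start.
Mpo: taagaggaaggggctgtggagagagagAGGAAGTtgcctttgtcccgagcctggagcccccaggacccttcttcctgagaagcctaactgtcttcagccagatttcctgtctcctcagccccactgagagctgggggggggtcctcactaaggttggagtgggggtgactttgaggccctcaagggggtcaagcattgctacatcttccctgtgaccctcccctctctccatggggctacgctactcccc
Cpa3: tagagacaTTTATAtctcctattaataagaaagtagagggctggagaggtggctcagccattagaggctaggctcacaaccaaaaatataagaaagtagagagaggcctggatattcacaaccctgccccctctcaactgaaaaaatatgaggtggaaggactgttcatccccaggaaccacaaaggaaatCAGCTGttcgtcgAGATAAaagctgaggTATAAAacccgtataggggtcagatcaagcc

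Over groups of genes these letters were unevenly spread in part. AGGAAGT, searched on both strands, was held by 15.6% of 257 windows of genes called higher and 10.0% of 319 windows of genes called lower, against 7.28% of 19177 windows of genes tested. TTGCNNAA, letters bound by C/EBP factors, was held by 12.8% and 12.9%, against 8.66%. AGATAA was held by 9.73% and 11%, against 8.45%, and the Y box letters by 32.3% and 31.0%, against 34.5%. For CAGCTG the shares were 14.4% and 11.9%, against 12.7%, for TATAAA 8.95% and 10.0%, against 10.5%, and for the ETS-IRF composite element 2.72% and 1.88%, against 2.14%. A gene can have several windows, and these shares are descriptions without a test.

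Genes of stem and multipotent progenitors fell in part. Of 28 measured, 9 were called lower and 1 higher (35.7% against 2.81% of all genes), with a median of −0.26. Adgrg1, an adhesion receptor gene of stem cells, was at 12.90, 12.80 and 12.94 in MPP and 10.13, 10.11 and 9.54 in CDP, a difference of −2.95 ± 0.18. Angpt1, the angiopoietin 1 gene, fell by 2.58 ± 0.14, and Gata2 fell by 1.80 ± 0.14, from 9.59, 9.83 and 9.84 to 7.93, 7.97 and 7.96. Erg, an ETS factor gene of stem cells, fell by 1.75 ± 0.17, and Myb fell by 1.16 ± 0.10, from 12.73, 12.68 and 12.72 to 11.67, 11.38 and 11.60. Cd34, a surface sialomucin gene of progenitors, fell by 1.04 ± 0.09, from 13.14, 13.08 and 13.12 to 11.98, 12.17 and 12.06. The groups were far apart against their spread, and the call was lost by the fold threshold without CDP replicate 1 (−0.995). Bcl11a, a zinc finger gene of lymphoid and pDC development, rose by 1.75 ± 0.12. Procr and Slamf1, surface genes of stem cells, were low in both cell types (differences of 0.00 ± 0.18 and 0.09 ± 0.08). The homeobox gene Hoxa9 was at −0.26 ± 0.12, and 0 of 11 Hoxa and cofactor genes was called by limma, with 9 at an unadjusted p under 0.05.

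Ly6a2, a relative of Ly6a, was at 13.33, 13.43 and 13.59 in MPP and 8.65, 7.91 and 8.14 in CDP, a difference of −5.22 ± 0.29 (37.2-fold). Genes of the Ly6 family are near copies of each other, and whether these probes also read other members was not tested. Nkg7, a granule protein gene of NK cells and T cells, fell by 4.74 ± 0.26, from 12.07, 11.93 and 11.95 to 7.66, 6.93 and 7.13. The factors of granulocytes and monocytes fell in 3 of 13 cases (23.1% against 1.55% of all genes). Besides Gfi1, Cebpe, which drives specific granule genes, fell by 1.94 ± 0.17, from 9.95, 10.11 and 10.10 to 8.12, 7.87 and 8.34. Cebpa, the C/EBPα gene, fell by 1.42 ± 0.22, from 10.88, 10.98 and 10.99 to 9.26, 9.71 and 9.61. Cebpb was at −0.72 ± 0.21 (adjusted p = 0.0141) and Klf4, a factor gene of monocytes, at 0.56 ± 0.15.

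Genes of monocytes and macrophages moved in both directions. Of 30 measured, 3 were called higher and 4 lower (23.3% against 2.81% of all genes), with a median of 0.03. Cx3cr1, the fractalkine receptor gene, rose by 1.40 ± 0.15, Mrc1, the mannose receptor gene, by 1.59 ± 0.17, and Itgam, the CD11b gene, by 1.10 ± 0.15. F13a1, the gene of a coagulation factor subunit in monocytes, fell by 2.92 ± 0.46, Trem2 fell by 1.40 ± 0.17, Msr1, a scavenger receptor gene, fell by 1.43 ± 0.35 and Fcgr3, an IgG receptor gene, fell by 1.02 ± 0.20. The calls of Msr1 and Fcgr3 were each lost when some single arrays were left out. Lyz2, the lysozyme gene, was at −0.23 ± 0.29 and Adgre1, a surface receptor gene of macrophages, at 0.51 ± 0.43, with overlapping groups.

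In other lineages 18.8% of erythroid and 12.5% of eosinophil genes were called, against 2.81% of all genes in either direction. Of 16 erythroid genes Nfe2, a factor gene shared with megakaryocytes, fell by 1.85 ± 0.12, Car2, the carbonic anhydrase 2 gene, fell by 1.84 ± 0.34 and the tetraspanin gene Tspan33 rose by 1.67 ± 0.19. Klf1, a defining erythroid factor gene, was at 7.17, 7.00 and 7.23 in MPP and 6.94, 7.16 and 7.17 in CDP. Of 8 eosinophil genes the lipoxygenase gene Alox15 rose by 1.32 ± 0.10. For megakaryocytes 0 of 15 genes was called by limma, with 7 at an unadjusted p under 0.05.

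Of 25 receptor, ligand and Smad genes of TGF-β signalling, on which the time course turns, 1 was called lower before treatment (4%, near the 2.81% of all genes), with a median of 0.09. At an unadjusted p under 0.05 were 15 of the 25, and the groups did not overlap for 17 (12 higher and 5 lower, against 40.2% of all genes). Tgfbr2, the type II receptor gene that binds the ligand, was at 9.94, 10.03 and 9.80 in MPP and 10.65, 10.83 and 10.70 in CDP. The groups did not overlap, and the difference of 0.81 ± 0.10 had an adjusted p of 1.52e-07 below the fold threshold. Tgfbr1, the type I receptor gene, was at 10.37, 10.33 and 9.94 in MPP and 10.16, 10.46 and 10.08 in CDP, with overlapping groups and a difference of 0.02 ± 0.17 (95% confidence interval −0.32 to 0.36). Tgfbr3, the gene of the coreceptor betaglycan, fell by 1.09 ± 0.11, from 8.51, 8.59 and 8.80 to 7.58, 7.53 and 7.53, a call lost by the fold threshold without the arrays numbered 3 (−0.99), and Eng, the coreceptor gene endoglin, was at −0.68 ± 0.12.

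None of the signal-carrying Smad genes was called: Smad2 was at 0.09 ± 0.05, Smad3 at −0.01 ± 0.14 and the shared partner Smad4 at 0.29 ± 0.06. Acvrl1, another type I receptor gene, was at 0.80 ± 0.09 (adjusted p = 9.59e-08). Among the ligands Tgfb1 was at 12.74, 12.85 and 12.87 in MPP and 12.54, 12.75 and 12.61 in CDP, a difference of −0.19 ± 0.16 (adjusted p = 0.461). Tgfb3 was at 7.01, 7.05 and 6.99 in MPP and 8.33, 8.51 and 8.09 in CDP. The groups of Tgfb3 did not overlap, but its difference of 1.29 ± 0.40 was not called in the main fit (adjusted p = 0.019). It was called with the replicate number as a block (adjusted p = 0.00816) and with array weights (adjusted p = 0.000966). In a fit to the untreated arrays alone its SE was 0.099, and it was called (adjusted p = 9.57e-05). It stayed uncalled when any single array was left out of the main fit. Of 18 feedback inhibitors Spsb1, an adaptor gene of receptor degradation, rose by 1.00 ± 0.12, at the fold threshold. The inhibitor genes Smad7 and Skil were at 0.19 ± 0.12 and 0.30 ± 0.14.

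Of 23 S phase genes and 23 G2 and mitosis genes 0 was called by limma, with 4 and 6 at an unadjusted p under 0.05 and medians of −0.05 and 0.11. Mki67, a marker of cycling cells, was at 13.14, 13.12 and 13.02 in MPP and 13.31, 13.33 and 13.22 in CDP, and Pcna, the replication clamp gene, at 13.28, 13.22 and 13.27 and 13.29, 13.25 and 13.25. Ccnd1, the cyclin D1 gene, rose by 1.34 ± 0.10. The 24 ribosome biogenesis genes lay below 0 in every case, from −0.63 to −0.02, with a median of −0.24. By limma 0 of them was called, with 16 at an unadjusted p under 0.05. Of 19 genes of glucose use, Hk3, a hexokinase gene of myeloid cells, fell by 2.65 ± 0.18 and Fbp1, the fructose bisphosphatase gene, fell by 1.28 ± 0.10.

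Of 26 lysosome genes 2 were called higher (against 1.26% of all genes), 1 lower and 23 not, with a median of 0.04. The proteases that rose were Lgmn, legumain, by 2.18 ± 0.09 and Ctsh, cathepsin H, by 1.54 ± 0.10, and the member that fell was Cd63, given above. Of 19 measured chemokine receptors, 3 were called higher and 1 lower (21.1% against 2.81% of all genes). Ccr7 and Cx3cr1 are given above. Ccr6 rose by 1.37 ± 0.27, a call lost without the arrays numbered 1 or those numbered 2. Cxcr2, the gene of a receptor that guides neutrophils, fell by 2.56 ± 0.31, from 10.24, 10.21 and 9.51 to 7.87, 7.58 and 6.84. Il15, the interleukin 15 gene, fell by 1.57 ± 0.26. The interferon-stimulated genes had a median of 0.47 and 0 of 26 was called by limma, with 2 at an unadjusted p under 0.05. Ifit3, 1 of them, was at 6.97, 7.10 and 8.31 in MPP and 8.22, 7.66 and 11.06 in CDP, a difference of 1.52 ± 1.07. Replicate 3 was the highest of its cell type in both groups, and its SE compares with a median of 0.0719 over all genes. The NF-κB targets had a median of 0.64, with 1 of 19 called (Cd40, 5.26% against 2.81% of all genes). Their array means were 9.45, 9.63 and 10.38 in MPP and 10.15, 10.29 and 10.73 in CDP.

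Whether the difference between the untreated cells was also present on other arrays was asked of the 6 arrays at 24 h of TGF-β1. There 413 genes (2.07%) were higher and 595 (2.98%) lower in CDP. Of the 251 genes higher at 0 h, 158 (62.9%) were also called higher at 24 h, and of the 310 lower, 259 (83.5%) were also called lower, together 417 genes. As shares of the 24 h calls these were 38.3% and 43.5%. By limma 0 of the 561 was called in the other direction at 24 h, and 240 of the 251 and 303 of the 310 kept their sign. The 158 and 259 genes held 129 and 216 that were called in the same direction at every later time. The median difference went from 1.46 to 1.27 for the genes higher at 0 h and from −1.45 to −1.74 for those lower. Both sets were chosen by their 0 h difference, which alone can make a later difference smaller, and this was not tested. The 24 h cells had TGF-β1 and a day more of culture, which cannot be told apart here. Whether same-numbered arrays at 0 and 24 h share animals is not given, so the 24 h arrays may not be an independent repeat.

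The change of the difference from 0 to 24 h was itself tested, and it was called for 300 genes (1.5%). Of the 251 higher at 0 h it was called for 50, with a smaller difference at 24 h in 36. Of the 310 lower it was called for 41, with a smaller difference in 12. These genes were chosen by the 0 h difference, which also enters the change, so the choice alone favours a smaller difference at 24 h. H2-Aa stayed at 5.73 and Mpo at −5.54. Cd22 went from 3.75 to 0.14 (change −3.62 ± 0.23, adjusted p = 1.69e-11), and at 24 h it was not called. Kit went from −2.67 to 0.26 (change 2.93 ± 0.32, adjusted p = 2.08e-07). Ctsg moved away from 0, from −2.33 to −5.76 (change −3.43 ± 0.22, adjusted p = 1.69e-11), and so did Ciita, from 3.27 to 4.46, and Siglech, from 1.62 to 3.31.

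**Figure D5:**
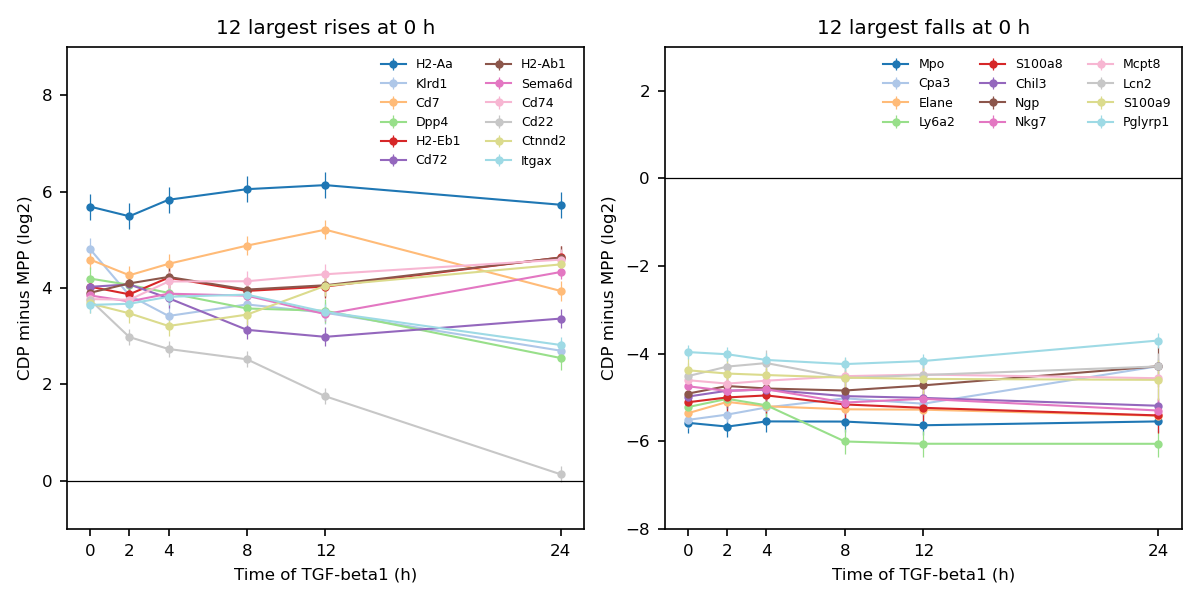
Difference of mean log2 intensity, CDP minus MPP, at 0, 2, 4, 8, 12 and 24 h of TGF-β1 for the 12 genes with the largest rise (left) and fall (right) at 0 h. Points are differences of 3 against 3 arrays, error bars are limma standard errors and the horizontal line marks no difference. Cd22 reaches 0.14 at 24 h, and the other 23 genes stay on their side of 0 by 2.55 or more.

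Some of the genes called are neighbours in the genome. By the order of the RefSeq gene table, H2-Ob, H2-Ab1, H2-Aa and H2-Eb1 are 4 adjacent tested genes that all rose, and so did Slc16a14, A530032D15Rik, A530040E14Rik and Sp140. The second run rose by 2.94 ± 0.32, 1.38 ± 0.12, 3.15 ± 0.16 and 1.15 ± 0.12. Gpr171, P2ry14 and F630111L10Rik formed a run of 3 that rose (1.49 ± 0.27, 1.07 ± 0.22 and 1.27 ± 0.22), and Arsb, Lhfpl2 and Scamp1 a run of 3 that fell (−1.82 ± 0.13, −1.07 ± 0.15 and −2.22 ± 0.09). Whether probes of near copies within a run read the same transcripts was not tested.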

How the data were processed

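RNA of 36 samples was measured on Affymetrix Mouse Gene 1.0 ST arrays, and 6 untreated samples enter the comparison. The authors deposited 1 log2 intensity for each probe set and array, made with Affymetrix Power Tools and RMA per the submitters' processing notes (versions not given in the sources used here). RMA sets all arrays to 1 distribution, so differences are relative to the other genes, and it compresses differences of dim genes. No detection p was used. The study's own analysis used other summaries and is not repeated.

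Of 35556 probe sets, 21789 carry 1 gene symbol. Where a gene had several (999 genes), the probe set whose mean was highest on the 36 arrays stood for it, leaving 19938 genes. limma 3.58.1 in R 4.3.3 (lmFit, eBayes) was fitted to all 36 arrays with a mean for each of 12 groups and no block, with 24 residual and 3.18 prior degrees of freedom. CDP was compared with MPP at 0 h and, on other arrays, at 24 h. Tests are two-sided, p-values were Benjamini-Hochberg adjusted over all genes, and a call required an adjusted p under 0.01 with a log2 fold change of at least 1 in size. The code of the fit was tested on simulated data with independent noise on each array. That noise lacks the properties shared by same-numbered arrays, so the simulation does not bear on them. Errors are SE of a difference between groups of 3 arrays unless stated, and the number of arrays limits precision. The variance behind each SE comes from all 36 arrays, treated ones included. An SE can therefore differ from the spread of the untreated arrays. For Tgfb3 it was 0.397 in this fit and 0.099 in a fit to the untreated arrays alone. The study calls its replicates biological. Whether MPP and CDP of 1 number came from the same animals is not given.

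Deviations of same-numbered untreated arrays from their group means correlated at 0.513, 0.283 and 0.417 (0.355, 0.226 and 0.390 without sex-linked transcripts), so replicate numbers were taken to pair the cell types at 0 h. The pairing comes from the data, and the main fit and its p-values do not use it. A fit with the number as a block is an alternative.

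The 38 gene lists (715 genes measured), their members and the tests were chosen with earlier results of these data known. Genes are named by a rule: the 12 largest rises and falls with no overlap, the cell type markers, up to 4 called members of each list, and any member of the dendritic factors, cytokine receptors, and TGF-β receptors and Smads. Another 62 genes were named after their values were seen, among them granule genes, class II partners and neighbours. Promoter windows are from RefSeq (GRCm38.p6). The 1621 probe sets with several symbols and the 12146 with none had a fit of their own.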

Additional observations from a re-analysis of the deposited data

Results flagged for a closer look

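The difference between CDP and MPP at 24 h of TGF-β1 was tested against that at 0 h for every gene, and 29 of the named genes passed the thresholds of the report for this change. Each value is the difference at 24 h minus that at 0 h on the log2 scale, and a negative value says that CDP moved down relative to MPP. Treatment and time in culture cannot be told apart in it. For genes called at 0 h, that choice can also draw the later difference toward no difference.

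Among genes higher in CDP at 0 h the change was negative for Cd22 (−3.62), Pltp (−2.43), Bank1 (−2.36), Klrd1 (−2.10), Cx3cr1 (−1.80), Dpp4 (−1.65), Mrc1 (−1.46), St6gal1 (−1.46) and Alox15 (−1.13). It was positive for the adhesion gene Cdh1 (2.96), the chemokine receptor gene Ccr6 (2.21), Il7r (1.96), Cd80 (1.77), Siglech (1.69), Irf4 (1.36) and Ciita (1.19). Among genes lower in CDP at 0 h the change was positive for Kit (2.93) and Cpa3 (1.23), and negative for Ctsg (−3.43), Fcgr3 (−2.71), Cxcr2 (−2.57), Prtn3 (−1.28) and Trem2 (−1.18). Of genes not called at 0 h it was negative for Mmp8 (−3.01), Csf3r (−2.18), Lyz2 (−1.74), Smad3 (−1.56) and Zeb2 (−1.51), and positive for Id2 (1.01).

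Probe sets outside the gene table also differed between the untreated cells. Of 1621 probe sets with several gene symbols 23 were called (18 higher and 5 lower in CDP), and of 12146 with no symbol 31 were called (18 higher and 13 lower).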

How the results depend on the processing

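Over 20 alternatives (fewer arrays, a block, filters, scalings, variance priors, array weights, thresholds) the 3 main counts stayed within 1.5 times their values. These are the genes higher, lower and shared with 24 h. Over lists and alternatives, 46 counts of called list members moved by more than 1.5 times and 714 did not. Of the list medians, 27 moved by more than their spread among arrays of a cell type and 733 did not. With the replicate number as a block there were 257 higher and 317 lower genes on 36 arrays, and 272 and 319 on the 6 untreated arrays. All 561 calls were among those of the first block, and 558 among those of the second. Among named genes the first block added the calls of Tgfb3 and Ly6g given above. The second added Tgfb3 (adjusted p = 0.000157), Cd83 (adjusted p = 0.00149) and Slc7a11, a cystine transporter gene (−1.49, adjusted p = 2.45e-05), and ended that of Il7r (adjusted p = 0.0203). Leaving out 1 array or 1 replicate number gave 230 to 278 higher and 272 to 326 lower genes, and 372 to 421 shared with 24 h in place of 417. Without untreated replicates 3 and CDP 2 h replicate 3, chosen after seeing the data, there were 230 higher and 314 lower genes. The brighter genes alone gave 209 and 262.

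Of 114 named genes called, 90 were called under every alternative that held them, among them the 12 largest rises and falls. The other 24 lost the call under at least 1 alternative. Among them were Camp, Msr1, Cd40, Spsb1, H2-DMa, Il7r, Fcgr3, Cd80, Cd86, Ltf, Prss34, Il15 and Car2. Of 106 named genes not called, 99 were called under none that held them. The alternative of brighter genes left out 43 named genes, 15 of them called. No named gene that was called changed direction, and none not called was called in the opposite direction. Changes of sign among named genes that stayed uncalled were not counted. Dim genes and 3 arrays a group limit what could be called.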
